A study of Homo sapiens with 18 samples.

Results

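The input arrays measured total RNA from U251-MG, a human astrocytoma cell line in common use, after arsenite. Of the 18 exon arrays of the series, 6 belong to input: 3 arrays of cells that received 500 µM arsenite for 30 min and 3 arrays of cells that received the vehicle DMSO for the same time. These 6 were chosen by their labels alone, and each array is labelled as a biological replicate of its group. The other 12 arrays measured RNA pulled down through TIAR or through G3BP1 (RNA immunoprecipitates, RIPs), from cells with and without arsenite. All groups share the cell line, and the labels name no transgene or deletion. The labels give the tissue as human brain. They do not say whether the input and the RIPs of a given number came from the same culture, so p-values measure the spread between arrays as labelled.

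Arsenite binds vicinal thiols of proteins and depletes reduced glutathione. It is a known inducer of several programmes at once: immediate early transcription through MAP kinases and serum response factor, metallothionein transcription through the metal-sensing factor MTF1, antioxidant genes through NRF2, heat shock genes through HSF1, and the integrated stress response through phosphorylation of eIF2alpha. Translation stops, and mRNA released from polysomes gathers in stress granules with TIAR and G3BP1. An array signal after such a short exposure reflects both new synthesis and the decay of older RNA.

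A few promoters are printed here, each with a chosen kind of motif in capitals. They belong to genes described below, and ATF4, FTL and FOS, which were also among the named rises, held 0 matches to the motifs searched. The windows run from 250 bases before to 50 bases after the gene's start, as RefSeq gives it on GRCh38.p14, written 5′ to 3′ on the gene's own strand. EGR1 lies at chr5:138465229-138465528 (plus strand), and the capitals mark 2 CArG boxes, the site of serum response factor, at 105 and 83 bases before the start. MT1X lies at chr16:56682220-56682519 (plus strand), and the capitals mark 4 cores of the metal response element (TGCACNC or TGCGCNC on either strand). DUSP1 at chr5:172771146-172771445 and FN1 at chr2:215436019-215436318 (both minus strand) each hold 1 full cyclic AMP response element, TGACGTCA, in capitals. DUSP1 was chosen for this display after its values were seen. Matches to other motifs searched are left in lower case. EGR1 also held 2 metal response element cores and DUSP1 held 1, and MT1X and DUSP1 each held 1 antioxidant response element core, TGACNNNGC.
EGR1: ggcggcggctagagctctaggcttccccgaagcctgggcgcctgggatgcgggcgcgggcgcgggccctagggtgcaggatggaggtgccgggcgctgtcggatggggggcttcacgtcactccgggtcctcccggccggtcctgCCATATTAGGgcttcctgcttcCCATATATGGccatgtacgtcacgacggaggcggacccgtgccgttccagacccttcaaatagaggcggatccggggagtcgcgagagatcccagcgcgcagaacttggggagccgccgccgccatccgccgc
MT1X: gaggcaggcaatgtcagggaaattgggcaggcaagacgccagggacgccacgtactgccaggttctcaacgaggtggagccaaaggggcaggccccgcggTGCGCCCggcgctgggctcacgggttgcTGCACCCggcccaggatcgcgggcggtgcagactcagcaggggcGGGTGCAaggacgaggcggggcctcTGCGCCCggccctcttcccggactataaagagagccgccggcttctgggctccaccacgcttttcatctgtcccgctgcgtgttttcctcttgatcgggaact
DUSP1: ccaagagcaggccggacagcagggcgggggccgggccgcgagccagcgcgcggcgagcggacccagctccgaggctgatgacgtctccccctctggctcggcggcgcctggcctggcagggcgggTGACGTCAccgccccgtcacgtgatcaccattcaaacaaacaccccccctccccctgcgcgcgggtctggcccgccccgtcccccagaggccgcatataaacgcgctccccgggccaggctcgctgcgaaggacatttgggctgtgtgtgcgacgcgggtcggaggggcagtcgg
FN1: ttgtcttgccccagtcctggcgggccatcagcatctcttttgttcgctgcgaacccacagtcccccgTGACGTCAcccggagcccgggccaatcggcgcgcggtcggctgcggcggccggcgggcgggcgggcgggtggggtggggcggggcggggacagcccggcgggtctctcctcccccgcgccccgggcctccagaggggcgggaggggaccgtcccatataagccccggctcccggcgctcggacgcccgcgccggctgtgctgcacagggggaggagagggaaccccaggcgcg

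Of 27305 RefSeq windows of this length, 1.29% held a CArG box, 1.98% held TGACGTCA and 29.3% held at least 1 metal response element core of either spelling. The 11 windows available for the 15 named rises below held a CArG box in 1 case, EGR1, and the full cyclic AMP response element in 1 case, FN1. A metal response element core was present in 4 of these 11 windows and in 5 of the 13 windows available for the 15 named falls. The heat shock unit GAANNTTC (6.87% of all windows) was in 0 of the 11 and 0 of the 13. The AP-1 site TGANTCA (7.76%) was in 0 and 1, and the antioxidant response element core TGACNNNGC (13.6%) in 1 and 2. A match is a description of letters in these windows and not a site shown to act.

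The values are log2 RMA signals, so a difference of 1 is a doubling. In all, 3026 of 22011 transcript clusters (the array's gene-level units) changed in input at an adjusted p under 0.05 in limma, or 13.7%, of which 554 (2.52%) were higher and 2472 (11.2%) lower with arsenite. At an unadjusted p under 0.05 there were 5831. The changes were small: the median was 0.51 among the clusters called higher and -0.58 among those called lower, and a size of at least 1 was reached by 40 (0.182%) higher and 181 (0.822%) lower. Groups did not overlap, whatever the test, in 1979 clusters (8.99%) with all arsenite arrays higher and in 5573 (25.3%) with all lower.

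Arsenite replicate 1 of input stood apart, and so did DMSO replicate 3 of the G3BP1 RIP, for which results are given beside the RIP values. In input, the replicate's mean correlation with the rest of its group was 0.9802, against 0.9853 and 0.9847 for replicates 2 and 3 and 0.9933 to 0.9936 for the DMSO arrays. The upper quartile of its signals was 9.17, against 9.54 and 9.57 in its group and 9.64 to 9.67 in DMSO. The gap lay in bright clusters. With the clusters split into 4 equal groups by mean input signal, in the third and the brightest group replicate 1 was below the DMSO mean by a median of -0.34 and -0.32, replicate 2 by -0.08 and -0.06, and replicate 3 by -0.06 and -0.04. In the dimmest group all 3 were slightly above it (0.07, 0.04 and 0.04). Replicate 1 was below both of its partners in 86.6% of the clusters called lower, in 70.8% of those called higher and in 56.6% of all.

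**Figure D1:**
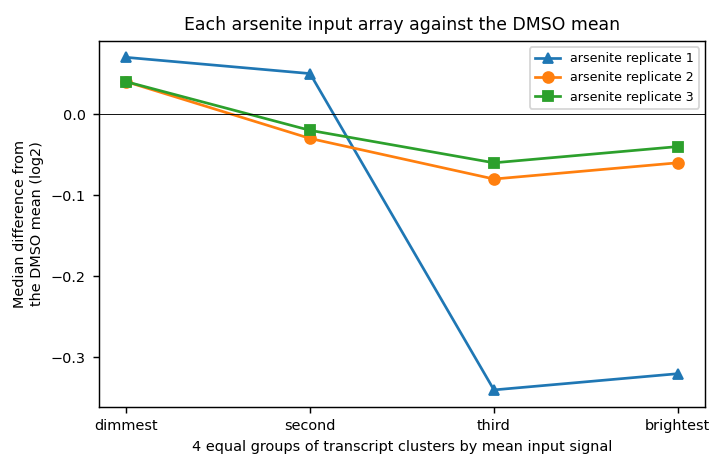
Median difference (log2) of each arsenite input array from the mean of the 3 DMSO input arrays, in 4 equal groups of transcript clusters ordered by mean input signal; each line is an array. Replicate 1 reaches -0.34 in the third group while replicates 2 and 3 stay between -0.08 and 0.04 in all 4 groups.

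Without replicate 1, 2439 clusters (11.1%) were called, 841 higher (3.82%) and 1598 lower (7.26%). The called set kept 452 rises and 1544 falls, lost 102 rises and 928 falls, and gained 389 rises and 54 falls. The share of rises among the calls went from 18.3% to 34.5%. Centring each array on its median, which shifts the differences by 0.1, gave 34.3% (1255 higher, 2407 lower), and doing both gave 40.6%. Leaving out a DMSO array also moved these counts: 312, 348 and 339 clusters were called higher without DMSO replicate 1, 2 and 3, and without DMSO replicate 1 the total was 1903, with 1591 lower. Falls outnumbered rises in all of these fits, and the ratio of falls to rises rested on replicate 1 and on the scaling.

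**Figure D2:**
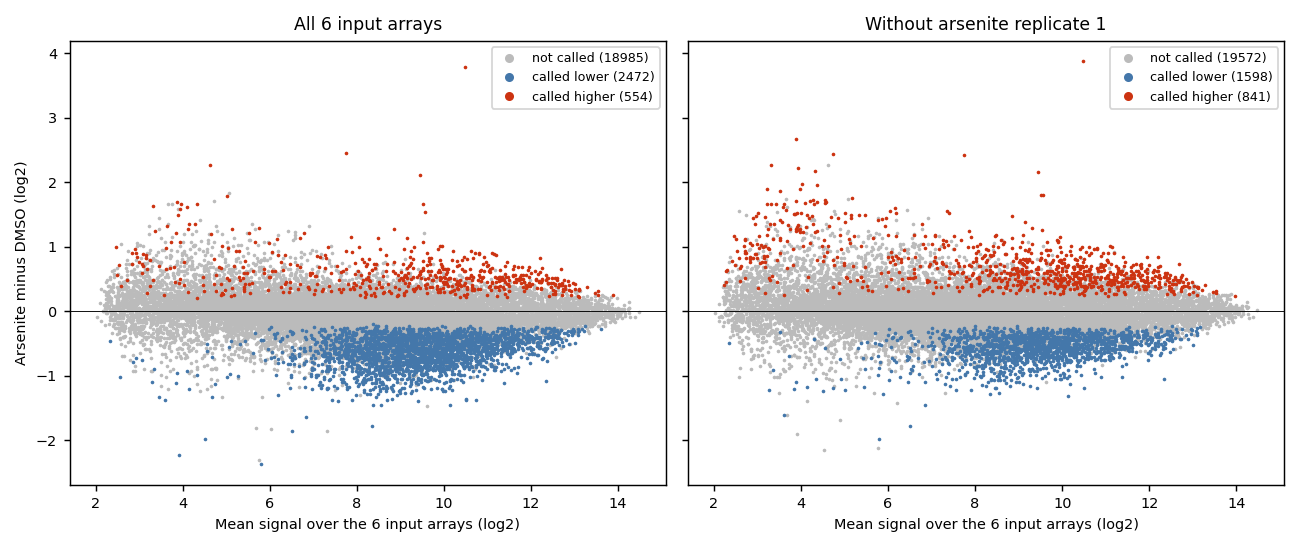
Arsenite minus DMSO (log2) against the mean signal over the 6 input arrays, for 22011 transcript clusters, with all arrays (left) and without arsenite replicate 1 (right); colours give the limma calls. The clusters called lower fall from 2472 to 1598 and those called higher go from 554 to 841, with EGR1 the highest point in both panels.

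Calls also followed signal. Among the 5503 dimmest clusters 111 were called higher and 54 lower, while the 5503 brightest held 284 and 1151. For gene-level statements each of 14232 genes with a single symbol was taken by its brightest cluster, and 296 of these genes were called higher (2.08%) and 1927 lower (13.5%). Without replicate 1 these shares were 2.83% and 8.76%, and with median centring 5.07% and 13.4%. The median difference over all genes was -0.06, or -0.04 without replicate 1. Protein-coding genes made up 13734 of them, with 284 rises and 1919 falls. The 317 long noncoding RNAs had 10 rises and 4 falls.

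Immediate early genes, which are transcribed from poised promoters without new protein synthesis, held the largest rise. EGR1, a zinc finger transcription factor with the CArG boxes printed above, gave 12.19, 12.45 and 12.47 in the arsenite arrays and 8.67, 8.56 and 8.53 in DMSO. The groups lay far apart, and the difference of 3.79 ± 0.09 (SE, n = 3 arrays a group) was a 13.8-fold rise (limma adjusted p = 2.2e-12), or 14.7-fold without replicate 1. FOS, a subunit of AP-1, gave 8.93, 9.05 and 9.18 against 7.85, 8.04 and 7.89, a rise of 1.13 ± 0.13 (adjusted p = 7.2e-05). JUNB, another AP-1 subunit, gave 10.22, 10.3 and 10.37 against 9.66, 9.53 and 9.49, a rise of 0.74 ± 0.11 (adjusted p = 0.00067).

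DUSP1, a nuclear phosphatase that switches off MAP kinases and is itself an immediate early gene, gave 10.48, 10.99 and 10.98 with arsenite and 9.99, 10.12 and 9.93 in DMSO. Here arsenite replicate 1 was the nearest to DMSO, and the rise of 0.80 ± 0.13 (adjusted p = 8.0e-04) was 0.97 without it. JUN rose by 0.41 ± 0.11 (adjusted p = 0.0285). That call was lost when arsenite replicate 2 or 3 or any 1 of the DMSO arrays was left out, with adjusted p from 0.0739 to 0.108. MYC, a growth-promoting transcription factor, gave 10.93, 11.14 and 11.15 against 10.87, 10.99 and 10.82 and was not called (difference 0.18, adjusted p = 0.189); its groups overlap. ATF3, a stress-induced repressor, gave 6.97, 6.94 and 6.76 against 6.99, 7.06 and 6.94 and was also not called (-0.11, adjusted p = 0.639).

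Of the 47 immediate early genes on the array, 11 were called higher (23.4%, against 2.08% of all genes) and 7 lower (14.9%, against 13.5%), with a median of 0.11. The list did not move as a block. Among the 7 lower were SRF, the factor that binds CArG boxes (-0.41), SPRY2, a feedback inhibitor of receptor tyrosine kinase signalling (-0.89), FOSL2 (-0.47) and ZFP36L2, an mRNA-destabilising protein (-0.48 ± 0.07, adjusted p = 0.00061). Without replicate 1, 9 were called higher and 5 lower (15 and 6 with centring), and IER2, EGR4, SPRY4 and JUND were among those lost. A related list of 30 genes holds targets of SRF and YAP and also the regulators YAP1, WWTR1 and TEAD1. Of these 30, 6 were higher (20.0%) and 7 lower (23.3%), against 2.08% and 13.5% of all genes. The median was -0.04, and the counts were 6 and 3 without replicate 1 and 7 and 4 with centring. CCN1, a matricellular protein (0.91 ± 0.10), THBS1, thrombospondin (0.69 ± 0.07), and VCL, vinculin (0.51 ± 0.07), rose, while YAP1 itself fell by 0.66 on the log2 scale (SE 0.09).

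Metal and antioxidant genes gave few but large rises. MT1X, a metallothionein that binds zinc and arsenic through cysteines, gave 9.01, 8.75 and 9.17 with arsenite and 5.94, 6.74 and 6.88 in DMSO. The DMSO arrays spread by almost a unit and still lay below all arsenite arrays, and the rise of 2.45 ± 0.25 (5.47-fold, adjusted p = 2.5e-05) was 2.43 without replicate 1. MT1G gave 6.58, 6.72 and 6.53 against 6.06, 5.81 and 6.42 and just missed the threshold (0.51 ± 0.17, adjusted p = 0.0522), though it passed without DMSO replicate 3 (0.67, adjusted p = 0.0214). SLC30A1, a zinc exporter and MTF1 target, did not pass (0.01, adjusted p = 0.967; from -0.08 to 0.14 with arrays left out). Of 11 metallothionein and zinc transport genes on the array, MT1X was the 1 called (9.09% higher, against 2.08% of all genes), and 2 were with centring. MT2A, MT1E, MT1F, FTH1 and HSPA1A had no transcript cluster with a single symbol and were not analysed here.

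FTL, the ferritin light chain, which stores iron and is an NRF2 target, gave 9.06, 9.72 and 9.66 with arsenite and 8.36, 8.2 and 8.06 in DMSO, a rise of 1.27 ± 0.20 (2.41-fold, adjusted p = 0.00071). HMOX1, heme oxygenase and the usual marker of NRF2 activity, gave 10.76, 11.07 and 11.17 against 11, 10.88 and 10.95. Its groups overlap and the difference was 0.06 (adjusted p = 0.794; -0.03 without arsenite replicate 3). Of 26 NRF2 targets and antioxidant enzymes, 2 were called higher (7.69%, against 2.08% of all genes) and 5 lower (19.2%, against 13.5%). The median was -0.03, and the counts were 4 and 4 without replicate 1 and 5 and 5 with centring. The falls were BACH1, a repressor of antioxidant genes (-0.94 ± 0.16), SRXN1, sulfiredoxin (-0.52 ± 0.09), TXNRD1, thioredoxin reductase (-0.59 ± 0.10), GCLC, which makes glutathione's precursor (-1.19 ± 0.22), and KEAP1, the inhibitor of NRF2 (-0.68 ± 0.17). All of these except KEAP1 kept their call without replicate 1 (KEAP1: adjusted p = 0.0553).

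The integrated stress response was represented by a single large rise at its own transcription factor. ATF4 gave 10.41, 10.43 and 10.68 with arsenite and 8.39, 8.49 and 8.29 in DMSO, a rise of 2.12 ± 0.12 (4.34-fold, adjusted p = 3.0e-07). Among its known targets, SLC1A5, a glutamine transporter (0.66 ± 0.11), SLC3A2, the heavy chain of amino acid transporters (0.46 ± 0.09), and ASNS, asparagine synthetase (0.57 ± 0.12), rose. TRIB3, a pseudokinase that dampens ATF4, fell by 0.52 on the log2 scale (SE 0.09, adjusted p = 0.00143). DDIT3, which encodes CHOP, gave 9.53, 10 and 9.9 against 10.22, 10.06 and 10.2 and was not called (-0.35 ± 0.25, adjusted p = 0.42). PPP1R15A, the inducible eIF2alpha phosphatase subunit, was not called either (0.09, adjusted p = 0.756). Over 45 genes of this pathway 4 were higher (8.89%, against 2.08% of all genes) and 7 lower (15.6%, against 13.5%). The median was -0.07, and the counts were 5 and 5 without replicate 1.

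Heat shock genes gave counts that turned on the scaling. Of 29 on the array, 2 rose (6.90%, against 2.08% of all genes) and 3 fell (10.3%, against 13.5%), with a median of 0.02, or 2 and 1 without replicate 1. With median centring 8 rose and 2 fell, against 5.07% and 13.4% of all genes. The risers were SERPINH1, the collagen chaperone HSP47 of the endoplasmic reticulum (0.70 ± 0.11, adjusted p = 0.00057), and HSPA13, an HSP70 relative (0.72 ± 0.18, adjusted p = 0.0138), whose call was lost without arsenite replicate 3 or DMSO replicate 2 or 3 (adjusted p from 0.0519 to 0.0601). HSF1, the heat shock transcription factor, fell by 0.43 on the log2 scale (SE 0.09, adjusted p = 0.00652). That call was lost with quantile normalization and cyclic loess (both -0.24, adjusted p = 0.156 and 0.125) and with input arrays alone (adjusted p = 0.053). HSPA8, the constitutive HSC70, gave 14.33, 14.31 and 14.3 against 14.14, 14.19 and 14.17, without overlap but also without a call (0.15, adjusted p = 0.117). DNAJB1, an inducible cochaperone, was not called (-0.22, adjusted p = 0.374).

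Among genes of the extracellular matrix, whose products are translated at the endoplasmic reticulum and secreted, every call was a rise. Of 132 on the array, 26 were called higher (19.7%, against 2.08% of all genes) and 0 lower (against 13.5%), with a median of 0.10; without replicate 1 the counts were 29 and 0, and with centring 39 and 0. VCAN, the proteoglycan versican, gave 9.21, 10 and 9.95 with arsenite and 8.65, 8.55 and 8.54 in DMSO, a rise of 1.14 ± 0.20 (2.20-fold, adjusted p = 0.00175). FN1, fibronectin, gave 9.69, 10.27 and 10.24 against 9.1, 8.94 and 8.95, a rise of 1.07 ± 0.14. In both genes replicate 1 moved least, and the rises without it were 1.39 and 1.26. LOXL2, a lysyl oxidase that crosslinks collagen, gave 11.59, 11.63 and 11.67 against 10.76, 10.75 and 10.73, with almost no spread (0.88 ± 0.07, adjusted p = 5.4e-06). TNC, tenascin C (0.90 ± 0.09), NID1, nidogen (0.82 ± 0.10), and THBS1 also rose. The list contains genes with signals from 2.69 to 13.00, and 106 of the 132 were not called.

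Folding and glycosylation genes of the endoplasmic reticulum showed smaller rises. Of 34, 5 were higher (14.7%, against 2.08% of all genes) and 1 lower (2.94%, against 13.5%), with a median of 0.16. The counts were 8 and 0 without replicate 1 and 13 and 2 with centring. STT3A, a catalytic subunit of oligosaccharyltransferase, gave 12.38, 12.48 and 12.53 against 11.86, 11.91 and 11.88, a rise of 0.58 ± 0.08. HSPA5, the lumenal chaperone BiP, rose by 0.56 ± 0.11 and PDIA4, a disulfide isomerase, by 0.63 ± 0.12. CANX, calnexin, was called at 0.32 ± 0.08 and lost its call without arsenite replicate 2 or 3 or DMSO replicate 1 or 2 (adjusted p from 0.0508 to 0.0664). The fall was EDEM1, which acts in disposal of misfolded glycoproteins (-0.92 ± 0.28), and it was not called without replicate 1 (-0.64, adjusted p = 0.16).

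By a rule of size, 15 genes were named in each direction among those of at least median signal whose call was the same with and without arsenite replicate 1 and whose input arrays did not overlap; 207 rises and 1094 falls met these conditions. Since the rule used these arrays, their input values are a description. Besides EGR1, ATF4, FTL, VCAN, FOS, FN1, CCN1, TNC and LOXL2, the rises were EMC1 (0.97), a subunit of the membrane protein insertase, NCAM1 (0.96), a cell adhesion molecule, TPP1 (0.94), a lysosomal peptidase, GANAB (0.94), a glucosidase that trims glycans in the endoplasmic reticulum, IQGAP1 (0.90), a cytoskeletal scaffold, and IL13RA2 (0.89), a decoy receptor found on gliomas. The range was 0.88 to 3.79, with a median of 0.96, and 1.08 without replicate 1. Replicate 1 was the lowest of the arsenite arrays, and so nearest to DMSO, in all 15. MT1X was left out of this rule because its mean signal was below the median.

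**Figure D3:**
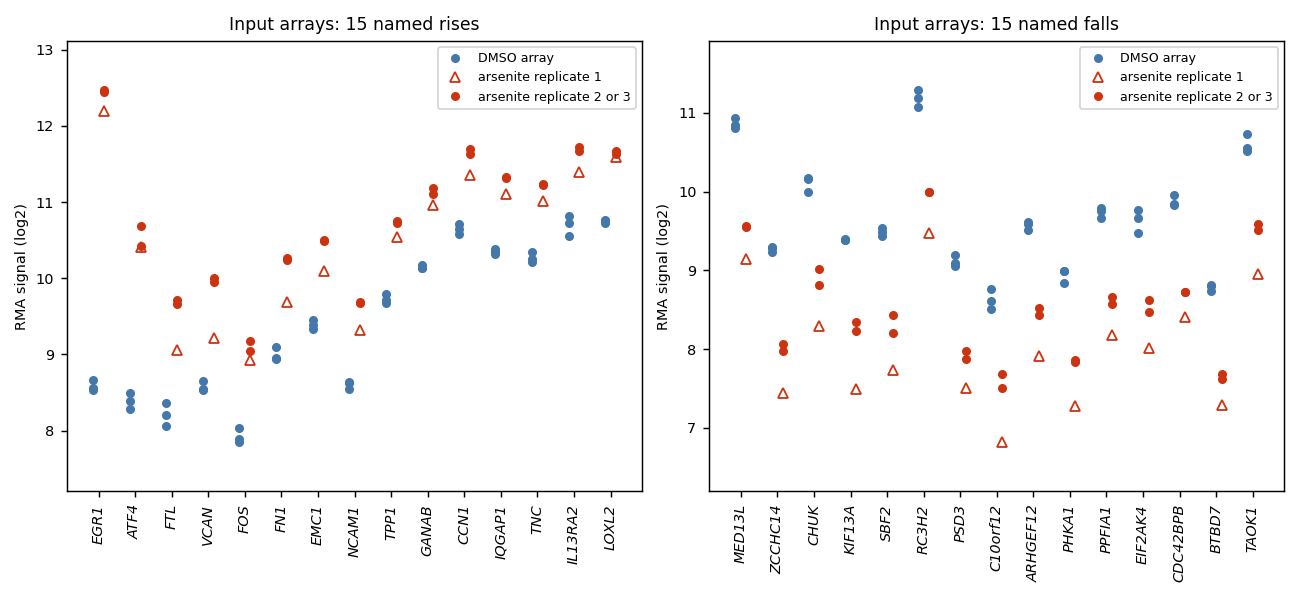
RMA signal (log2) in each of the 6 input arrays for the 15 named rises (left) and the 15 named falls (right); blue points are DMSO arrays, red points arsenite arrays, and the open triangle is arsenite replicate 1. EGR1 moves from about 8.59 to 12.37, and the triangle is the lowest red symbol for each of the 30 genes.

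Among the falls, MED13L, a subunit of the kinase module of Mediator, gave 9.15, 9.55 and 9.57 with arsenite and 10.94, 10.81 and 10.85 in DMSO. The groups lay more than a unit apart, and the difference was -1.45 ± 0.10 (2.72-fold lower, adjusted p = 2.4e-06), or -1.31 without replicate 1. CHUK, the IKKalpha kinase of the NF-kappaB pathway, gave 8.3, 8.82 and 9.02 against 10.16, 9.99 and 10.17 (2.62-fold lower, adjusted p = 0.00153). RC3H2, a roquin protein that binds stem-loops of mRNAs and triggers their decay, gave 9.47, 10 and 10 against 11.29, 11.08 and 11.19 (2.57-fold lower). EIF2AK4, the amino acid sensor GCN2 and an eIF2alpha kinase, gave 8.01, 8.47 and 8.63 against 9.67, 9.47 and 9.77 (2.41-fold lower).

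The other named falls were ZCCHC14 (-1.45), a zinc knuckle protein, KIF13A (-1.37), a kinesin, SBF2 (-1.36), ARHGEF12 (-1.29) and PSD3 (-1.32), which are exchange factors of small GTPases, C10orf12 (-1.29), PHKA1 (-1.28), a phosphorylase kinase subunit, PPFIA1 (-1.27), liprin alpha, CDC42BPB (-1.26) and TAOK1 (-1.24), which are kinases, and BTBD7 (-1.25). The range of the 15 was -1.45 to -1.24 with a median of -1.29, and -1.14 without replicate 1. Replicate 1 was the lowest of the arsenite arrays in all 15, so here it was the farthest from DMSO. LONRF1, a RING finger gene below the signal limit of the rule, gave 5.39, 5.81 and 5.52 against 7.54, 7.36 and 7.42, a fall of 1.86 ± 0.27 on the log2 scale.

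Falls were frequent among regulators of transcription. Of 53 chromatin regulators and coactivators on the array, 30 were lower (56.6%, against 13.5% of all genes) and 0 higher, with a median of -0.57; without replicate 1, 24 were lower (against 8.76%), with a median of -0.41. CREBBP, a histone acetyltransferase, gave 9.57, 9.89 and 9.91 against 10.9, 10.8 and 10.79, a fall of 1.04 ± 0.09 on the log2 scale (adjusted p = 5.7e-06). KMT2D, an H3K4 methyltransferase (-0.80 ± 0.08), ARID1A, a SWI/SNF subunit (-0.78 ± 0.09), and NCOA2, a nuclear receptor coactivator (-1.07 ± 0.16), fell as well. Of 28 Mediator subunits, 7 fell (against 13.5% of all genes) and 0 rose (median -0.18), or 6 and 0 without replicate 1, among them CDK19 (-1.12 ± 0.17) and MED13 (-0.82 ± 0.12) of the kinase module with MED13L, and MED14 (-0.56 ± 0.09), the scaffold subunit. Of 363 C2H2 zinc finger genes, drawn by symbol, 72 fell (19.8%, against 13.5% of all genes) and 1 rose (median -0.23), or 45 and 1 without replicate 1, and 3 rose with centring; ZNF532 (-0.96 ± 0.11) and ZNF592 (-0.72 ± 0.08) had the smallest p.

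Genes whose products repress or degrade mRNA were also often lower. Of 44 such genes, 19 were lower (43.2%, against 13.5% of all genes) and 1 higher (2.27%, against 2.08%), with a median of -0.40. The counts were 14 and 1 without replicate 1 and 20 and 2 with centring. AGO2, the slicing Argonaute, gave 9.21, 9.43 and 9.5 against 10.42, 10.36 and 10.38, so that it fell by 1.00 on the log2 scale (SE 0.13), and AGO1 gave 9.45, 10.06 and 10.09 against 10.88, 10.97 and 10.93 (-1.06 ± 0.14). TNRC6C, a GW182 scaffold of microRNA silencing, and PUM2, a Pumilio repressor, changed by -0.67 and -1.24. The 1 rise was ZC3HAV1, an antiviral zinc finger protein (0.45). PUM2 counts again among 33 stress granule proteins, of which 5 fell (15.2%, against 13.5% of all genes) and 2 rose (6.06%, against 2.08%). Their median was -0.04, and the counts were 3 and 1 without replicate 1 and 5 and 5 with centring. FMR1, the fragile X protein (-0.73 ± 0.16), and ATXN2L (-0.36 ± 0.08) fell with and without replicate 1. ATXN2L was not called with quantile normalization or cyclic loess (adjusted p = 0.179 and 0.0989). With input arrays alone neither gene was called (adjusted p = 0.0517 for FMR1 and 0.0936 for ATXN2L). EIF3B fell by 0.34 on the log2 scale in the full fit and was also called with centring (-0.24, adjusted p = 0.0236). It lost its call without arsenite replicate 1 or any DMSO array (adjusted p from 0.0735 to 0.12).

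The mRNAs of the 2 precipitated proteins were themselves on the array. G3BP1 gave 11.99, 12.3 and 12.23 against 11.76, 11.71 and 11.73, a rise of 0.44 ± 0.13 (adjusted p = 0.0315) that held without arsenite replicate 1 (0.53, adjusted p = 0.0216) but was lost when any other input array was left out (adjusted p from 0.0785 to 0.103). TIAL1, which encodes TIAR, was not called (-0.21 ± 0.15, adjusted p = 0.427), and its groups overlap.

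Among ubiquitin genes every call of the full fit was a fall. Of 157 ubiquitin ligases, drawn by symbol from the RING, HECT, TRIM and cullin families, 44 fell (28.0%, against 13.5% of all genes) and 0 rose (against 2.08%). Their median was -0.28, and the counts were 29 and 1 without replicate 1. CBL, which ubiquitinates receptor tyrosine kinases, gave 9.13, 9.59 and 9.63 against 10.63, 10.54 and 10.53 (-1.11 ± 0.11), and UBE3B (-0.99 ± 0.11), RNF135 (-1.09 ± 0.13) and TRIM44 (-0.69 ± 0.09) followed. Of 55 deubiquitinases 19 fell (34.5%, against 13.5% of all genes) and 0 rose, with a median of -0.39, or 14 and 1 without replicate 1. USP31 (-1.18 ± 0.10), JOSD1 (-0.89 ± 0.11) and USP7, which stabilises MDM2 and p53 (-1.04 ± 0.14), were the first by p; USP6NL (-1.13 ± 0.18), which the symbol pattern also caught, is a GTPase activator and not a deubiquitinase. Of 36 proteasome genes 2 were called lower (5.56%, against 13.5% of all genes) and 0 higher, with a median of -0.02. The counts were 0 and 1 without replicate 1 and 2 and 4 with centring. Both falls of the full fit, PSMD2 and PSME4, lost their call without arsenite replicate 1 or any DMSO array.

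Signalling genes were often lower as well. Of 67 MAP kinase cascade genes and their phosphatases, 31 fell (46.3%, against 13.5% of all genes) and 1 rose (1.49%, against 2.08%). The median was -0.36, and the counts were 23 and 1 without replicate 1. MAPK6 (-0.57 ± 0.08), DUSP8 (-0.60 ± 0.09), MKNK2, a kinase of eIF4E (-0.71 ± 0.11), and SPRED1, an inhibitor of RAS signalling (-1.22 ± 0.19), fell, while the 1 rise was DUSP1. Notch and WNT genes, 54 on the array, gave 15 falls (27.8%, against 13.5% of all genes) and 2 rises (3.7%, against 2.08%). Their median was -0.24, and the counts were 14 and 2 without replicate 1 and 16 and 6 with centring. BCL9 (-1.06 ± 0.12), MAML1 (-0.57 ± 0.07) and MIB1 (-1.37 ± 0.18) act in the nucleus or on ligands and fell, whereas NCSTN, the membrane glycoprotein of gamma-secretase, rose by 0.81 ± 0.08.

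In inflammatory and death pathways the calls of the full fit were falls. Their 0 rises are close to the 2.08% of all genes that rose, so the lack of rises does not set these lists apart. Of 37 genes of the NF-kappaB pathway and its targets, 11 fell (29.7%, against 13.5% of all genes; median -0.21), or 8 without replicate 1. TRAF3 (-0.74 ± 0.09), IRAK1 (-0.51 ± 0.09), TAB3 (-0.71 ± 0.12) and CHUK are signal carriers, and NFKB1, which encodes p50, fell by 0.95 on the log2 scale. The IRAK1 call was lost with quantile normalization and cyclic loess (adjusted p = 0.122 and 0.0844). NFKBIA, the fast feedback inhibitor, gave 10, 10.52 and 10.5 against 10.56, 10.6 and 10.48 and was not called (-0.21, adjusted p = 0.532). Of 34 p53 targets and apoptosis genes, 7 fell (20.6%; median -0.37), or 5 without replicate 1, and with centring 5 fell and 2 rose. BCL2L1, an inhibitor of apoptosis (-0.66 ± 0.09), MDM2, the p53 ligase (-0.78 ± 0.14), XIAP, a caspase inhibitor (-0.94 ± 0.19), and ZMAT3 (-0.89 ± 0.20) fell. CDKN1A, the p53 target p21, was not called (-0.06, adjusted p = 0.725).

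**Figure D4:**
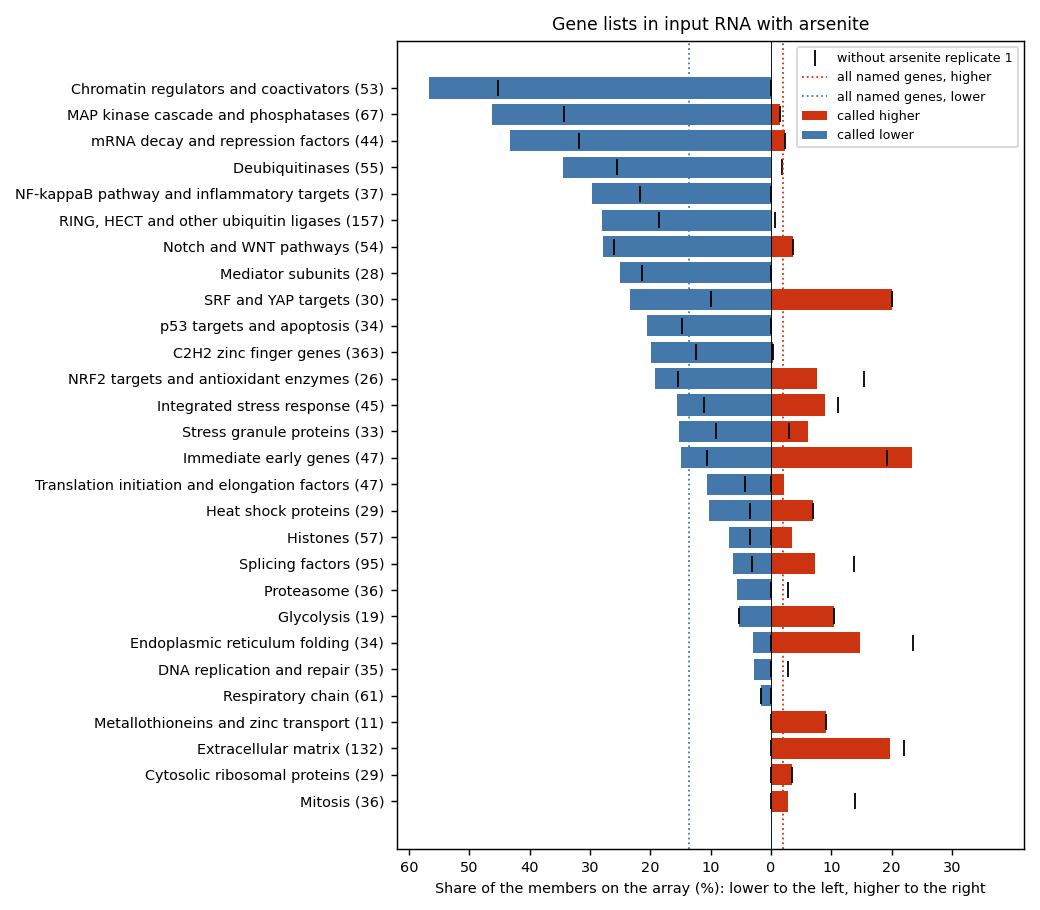
Share (%) of each reported gene list called higher (red, to the right) and lower (blue, to the left) in input with arsenite, with the number of members on the array in brackets; black ticks give the same shares without arsenite replicate 1, and dotted lines the shares among all 14232 genes (2.08% higher, 13.5% lower). Chromatin regulators reach 56.6% lower, and extracellular matrix genes 19.7% higher with 0 lower.

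Genes of basic metabolism were mostly not called, as were all genes (2.08% higher and 13.5% lower). The shares lower were 1.64% for respiratory chain, 0% for ribosomal protein, 10.6% for translation factor, 5.26% for glycolysis and 7.02% for histone genes. In the same order, the shares higher were 0%, 3.45%, 2.13%, 10.5% and 3.51%. Among 61 respiratory chain genes 1 was called, ATP5PF, an ATP synthase subunit (-0.44 ± 0.11), and the median was -0.09. The ATP5PF call was lost with quantile normalization and cyclic loess (adjusted p = 0.13 and 0.0801). Among 29 cytosolic ribosomal proteins 1 was called, RPS19 (0.63 ± 0.14), with a median of -0.04. Of 47 genes with symbols of translation factors 5 fell and 1 rose (median -0.12), but the 4 with the smallest p are EIF2AK4 and EIF2AK1, which are eIF2alpha kinases, EIF4EBP2, a repressor of eIF4E (-0.50 ± 0.11), and EEF1AKMT3, a methyltransferase of eEF1A; without replicate 1 the counts were 2 and 0, and with centring 5 and 4. Of 19 glycolysis genes 2 rose, SLC2A1, the glucose transporter GLUT1 (0.41 ± 0.08), and PFKP (0.27 ± 0.07), and 1 fell, PFKFB3 (-0.58 ± 0.11); PFKP lost its call without DMSO replicate 1, and with centring 5 rose. Of 57 histone genes 2 were higher and 4 lower (median -0.11), or 0 and 2 without replicate 1, and H3C7 led (-1.08 ± 0.24).

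In the nucleus, splicing and the cell cycle gave lists whose counts turned on replicate 1. Of 95 splicing factors 7 rose (7.37%, against 2.08% of all genes) and 6 fell (6.32%, against 13.5%), with a median of 0.03. Without replicate 1 the counts were 13 and 3, and with centring 18 and 5. SF3B4 (0.44 ± 0.08) and SRRM1 (0.45 ± 0.09) rose, HNRNPUL1 fell by 0.38 on the log2 scale, and PTBP1 rose by 0.26 ± 0.06. Of 36 mitosis genes 1 rose (2.78%, against 2.08% of all genes), ANLN, a contractile ring protein (0.60 ± 0.12), and the median was 0.16. The rises numbered 5 without replicate 1 and 11 with centring, with 0 lower in each fit. AURKB, a mitotic kinase, gave 12.66, 12.62 and 12.71 against 12.4, 12.46 and 12.39, without overlap, and was not called (0.25, adjusted p = 0.064), though it was with centring (0.34). ECT2, which acts in cytokinesis, had no settled direction (-0.01, adjusted p = 0.99; 0.25 without replicate 1). Of 35 DNA replication and repair genes 1 was lower (2.86%, against 13.5% of all genes), TP53BP1 (-0.63 ± 0.16). It was not called without replicate 1 or without DMSO replicate 1. With centring 3 of the 35 were higher and 2 lower.

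The RIP arrays measured the same treatment on other arrays, so the genes named from input could be tested there. All 15 named rises were called higher in the TIAR RIP with arsenite (6.15% of all genes were), with differences from 0.51 to 3.01, and 13 of 15 in the G3BP1 RIP (11.9% of all genes). The exceptions in the G3BP1 RIP were TPP1 (0.17, adjusted p = 0.278) and IL13RA2 (0.22, adjusted p = 0.493). All 15 named falls were called lower in the TIAR RIP (7.15% of all genes), with differences from -1.40 to -0.61. In the G3BP1 RIP 1 of the 15 was called lower (4.12% of all genes), CDC42BPB at -0.56, and the median of the 15 was -0.07. In the G3BP1 RIP, DMSO replicate 3 had a mean correlation of 0.9799 with its group and an upper quartile of 9.45, against 9.92 and 9.94 in its partners. Without it, the 15 falls lay between -0.67 and 0.00 in the G3BP1 RIP with a median of -0.30, and 4 were called lower, CDC42BPB, ZCCHC14, PHKA1 and PPFIA1. In that fit 10.8% of all genes were called lower and 9.3% higher, and 13 of the 15 rises were called higher. Whether RIP and input arrays share cultures is not stated, so these arrays may not be independent samples of the treatment.

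The difference of the changes was tested directly. Input minus TIAR RIP was called for 144 clusters (0.654%), and input minus G3BP1 RIP for 3721 (16.9%). The named falls were chosen by size on the input arrays that enter this difference, which favours a negative value, so for them it is given as a description. RC3H2, for example, stood at -1.36 ± 0.15 in input and 0.15 ± 0.15 in the G3BP1 RIP, or 0.00 ± 0.14 without DMSO replicate 3. EGR1, FOS and ATF4 were on the list of genes always reported, and also among those chosen by size. For a rise, that choice favours a larger change in input than in a RIP. The differences of EGR1 and ATF4 are therefore a description as well. ATF4 rose by 2.12 in input, 0.60 ± 0.12 in the TIAR RIP and 1.12 ± 0.12 in the G3BP1 RIP, and both differences passed (1.52, adjusted p = 0.00227, and 1.00, adjusted p = 9.3e-04). EGR1 rose by 3.01 in the TIAR RIP and by 3.86 in the G3BP1 RIP; its change in input exceeded that in the TIAR RIP by 0.77 (adjusted p = 0.0193) and was not called different from that in the G3BP1 RIP (-0.07 ± 0.13, adjusted p = 0.758). FOS rose by 1.98 in the G3BP1 RIP, 0.85 above its rise in input (adjusted p = 0.00527). Without DMSO replicate 3 of the G3BP1 RIP these differences from the G3BP1 RIP were 0.89 for ATF4, -0.07 for EGR1 and -0.97 for FOS, with adjusted p of 0.00149, 0.8 and 0.00161.

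**Figure D5:**
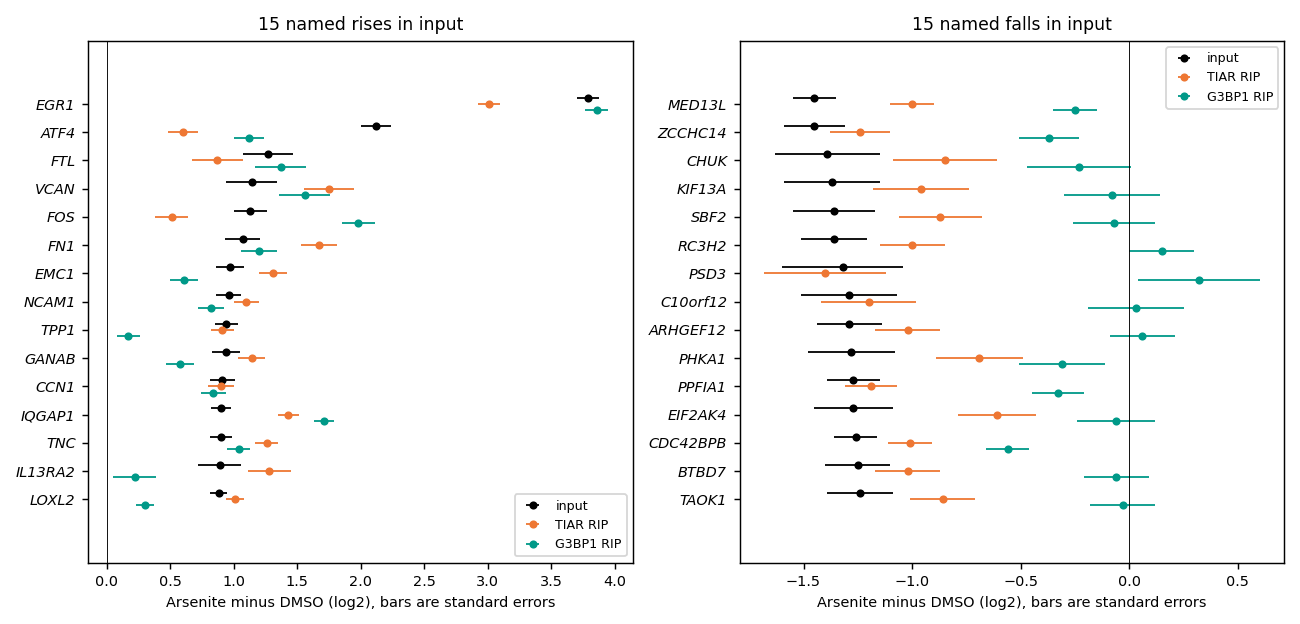
Arsenite minus DMSO (log2, with standard errors) in input (black), the TIAR RIP (orange) and the G3BP1 RIP (green) for the 15 named rises and the 15 named falls of input. The falls lie between -1.40 and -0.61 in the TIAR RIP and between -0.56 and 0.32 in the G3BP1 RIP, with all arrays kept.

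The gene groups were also counted in the RIPs, where 6.15% of all genes were higher and 7.15% lower in the TIAR RIP, and 11.9% higher and 4.12% lower in the G3BP1 RIP (9.3% and 10.8% without its DMSO replicate 3). Of the 53 chromatin regulators, 17 were lower and 3 higher in the TIAR RIP. In the G3BP1 RIP 10 were lower and 7 higher, or 18 and 5 without DMSO replicate 3. Of the 67 MAP kinase genes, 20 were lower and 1 higher in the TIAR RIP, against 1 lower and 10 higher in the G3BP1 RIP, or 4 and 8 without that array. Extracellular matrix genes were called higher in 34 of 132 cases in the TIAR RIP (1 lower) and in 38 in the G3BP1 RIP (0 lower), or 35 and 1 without that array. Endoplasmic reticulum folding genes gave 17 rises of 34 in the TIAR RIP and 14 in the G3BP1 RIP, or 10 without that array, with 0 falls in each.

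Markers were read for the labelled cell type and for others. The astrocyte and glioma list had 13 of 14 genes on the array, with CD44 (0.36), GJA1, connexin 43 (0.83), AQP4 (0.27) and VIM (0.24) called higher and 0 lower; without replicate 1 CD44 and GJA1 were. GFAP, the astrocyte filament protein, lay between 8.31 and 8.48 in all 6 arrays. Summed log2 signals of the list were 109.9 to 111.9 with arsenite and 109.1 to 109.3 in DMSO. Of neuron, oligodendrocyte, endothelial and blood markers (7, 6, 6 and 2 genes) 0 were called. Among 8 myeloid markers CD68, a lysosomal protein that other cells also make, was called (0.36), and the summed signals were 54.58 to 55.61 with arsenite against 53.28 to 53.6 in DMSO. Of 5 epithelial markers KRT8 was called (0.45), with sums of 41.07 to 41.69 against 40.35 to 40.94. The part of any of these shifts in the results was not tested. In bulk RNA, fewer cells of a type and less of an RNA per cell cannot be told apart, and RMA signals show the makeup of the RNA and not its amount per cell.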

How the data were processed

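Labelled RNA of 18 arrays, 6 of them input, was read on Affymetrix exon arrays. Per the submitters' processing notes, the authors ran RMA in Affymetrix Expression Console and deposited its log2 signals, which lie between 1.64 and 14.53. The sources used here do not give its version, the probe-set level or whether arrays were normalized jointly. Transcript clusters were named by the platform table: 65.6% of 22011 carry a single symbol.

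In limma 3.58.1 under R 4.3.3, group means were fitted to the 18 arrays together (lmFit, eBayes, no filter; residual degrees of freedom 12, prior 2.61), and two-sided p-values were adjusted by Benjamini-Hochberg over all clusters, with calls at an adjusted p under 0.05. In simulated data for the change in input, 76 of 100 clusters changed by 1 on the log2 scale and 96 of 100 changed by 2 were recovered. There were 11 false calls among the unchanged clusters of the 22011. The simulated noise was independent, with no array standing apart and no shift of a whole array. The number of false calls in the real input arrays can therefore differ. Genes were named by the size rule in the text, by up to 4 called members per list with the smallest p, and by 30 genes always reported, of which 25 were on the array. Other genes of the 29 lists and 7 marker lists that the text names were chosen after their values were seen. The results of 1 of the 29 lists are not reported here. The genes and lists were chosen with earlier results of these data known. Same-numbered arsenite and DMSO arrays did not deviate together (correlations -0.0734, -0.0742 and 0.0602, with the other pairs between -0.114 and 0.144). The fit therefore did not pair them by number. With 3 arrays a group these correlations cannot tell whether same-numbered arrays share a culture or a day. Alternatives were a replicate block, other scalings, filters on dim clusters, an intensity trend, array weights, a fit of the input arrays alone and leaving out each array. The number of arrays limits the precision.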

Additional observations from a re-analysis of the deposited data

Results flagged for a closer look

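By the interaction test in limma, the change in input differed from the change in a RIP for 86 of the 130 named genes. Over all clusters, 16.9% were called for input minus G3BP1 RIP and 0.654% for input minus TIAR RIP. Apart from MED14, PSMD2 and EIF3B, the values below are for the 27 genes that were named by size or always reported. Over all 130, the change in input was called lower than that in the G3BP1 RIP for 73 genes and higher for 9. The genes named by size or by the smallest p within a list were chosen on the input arrays that enter the difference. That choice favours a difference in the direction of the input change, so these counts and the values of such genes are a description.

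Input minus G3BP1 RIP stood at -1.20 for MED13L, -1.08 for ZCCHC14, -1.16 for CHUK, -1.29 for KIF13A, -1.30 for SBF2, -1.51 for RC3H2, -1.64 for PSD3, -1.32 for C10orf12, -1.35 for ARHGEF12, -0.97 for PHKA1, -0.94 for PPFIA1, -1.20 for EIF2AK4, -0.70 for CDC42BPB, -1.20 for BTBD7 and -1.21 for TAOK1, the 15 named falls. MED13 (-0.98) and LONRF1 (-1.33) had the same sign. DDIT3 (-1.18) and DNAJB1 (-0.77), which were not called in input, were called higher in the G3BP1 RIP (0.83 and 0.55; 0.40 and 0.33 without its DMSO replicate 3). FOS (-0.85) and IQGAP1 (-0.81) rose more in the G3BP1 RIP than in input.

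The change in input exceeded that in the G3BP1 RIP for ATF4 (1.00), TPP1 (0.77), LOXL2 (0.58), MT1X (1.47) and G3BP1 (0.77), the gene of the precipitated protein. All 26 of these differences from the G3BP1 RIP were called with the same sign without DMSO replicate 3 of that RIP. Their values without arsenite replicate 1 of input, the lowest arsenite array in all 15 named falls, are not given here. Without that input array 3513 clusters were called for this difference, against 3721 with all arrays. Against the TIAR RIP, 6 of the 130 named genes differed. The input change was higher for EGR1 (0.77) and ATF4 (1.52) and lower for IQGAP1 (-0.53), MED14 (-0.72), PSMD2 (-0.76) and EIF3B (-0.70). MED14, PSMD2 and EIF3B were named by their small p for a fall in input, so their differences are a description. The falls of PSMD2 and EIF3B in input were not called without arsenite replicate 1 (adjusted p = 0.133 and 0.12). With 1 array left out, 15 to 124 clusters were called for input minus TIAR RIP, against 144 with all arrays.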

How the results depend on the processing

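For 130 genes and their settings, 1945 of 2071 values kept direction and side of the threshold, 95 lost the call, 19 gained it and 12 turned sign. The calls in input numbered 5328 with array weights and 1487 with input arrays alone, and 1903 to 2957 with 1 array left out. Those higher numbered 1255 with median centring, 1431 with quantile normalization, 1351 with cyclic loess, 1742 with array weights, 218 with input arrays alone, 312 to 841 with 1 array left out, and 1282 with centring and without arsenite replicate 1, a setting added after seeing the data. Those lower numbered 1269 with input arrays alone and 1591 to 2537 with 1 array left out. Rises were 39.4% of the calls with quantile normalization or cyclic loess, 32.7% with array weights and 14.7% with input arrays alone. With the replicate block 2638 clusters were called (472 higher, 2166 lower), and the block gave 55 for input minus TIAR RIP. That difference had 239 calls with quantile normalization, 325 with loess, 219 and 312 without the lowest 25% and 50% of clusters, 1472 with array weights and 15 to 124 with 1 array left out. Input minus G3BP1 RIP had 5960 with array weights and 2802 to 4033 with 1 array left out. Of the 29 lists, 21 held more falls than rises, 13 with centring and 15 without arsenite replicate 1. The signs that turned belong to genes that were not called. HMOX1 turned to -0.03 without arsenite replicate 3. SLC30A1 turned to -0.02 and -0.08 without arsenite replicates 2 and 3 and to -0.04 without DMSO replicate 3, within a range of -0.08 to 0.14 with 1 array left out. ECT2 turned to 0.09 with centring, 0.19 with quantile normalization, 0.18 with loess, 0.20 with array weights, 0.25 without arsenite replicate 1, 0.02 and 0.01 without DMSO replicates 1 and 3, and 0.29 with centring and without arsenite replicate 1, within a range of -0.15 to 0.25 with 1 array left out. Leaving out DMSO replicate 3 of the G3BP1 RIP when reading that RIP's change was also added after seeing the data. The cause of these shifts was not tested.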
